A study of Mus musculus with 6 samples.

Results

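Bmp10, a trabecular bone morphogenetic protein (BMP) ligand, and Tmem100, an endothelial BMP target, were higher in mid-gestation mouse hearts with Hic2 conditionally removed. The mean differences were 1.64-fold and 1.67-fold. Both had a limma adjusted p under 0.05 with all 6 arrays. With 1 array left out, Bmp10 did so in 2 and Tmem100 in 1 of 6 refits. The 10 genes described here are 5 BMP ligands (Bmp10, Bmp2, Bmp4, Bmp5 and Bmp7), 4 genes switched on by BMP signalling (Id1, Id2, Id3 and Tmem100) and the receptor gene Acvrl1. Each was taken as the array row whose platform annotation names that gene alone, and each of the 10 had 1 such row. They are 10 of the 14860 genes tested. The set was put together with earlier results of these data known.

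Hearts were isolated from mouse embryos at E13.5, and total RNA was measured on Affymetrix mouse exon arrays. Control embryos (Hic2 FL/FL) carried loxP-flanked Hic2 on both chromosomes and no Cre. Knockout embryos (Mesp1 Cre/+; Hic2 FL/FL) carried the same floxed alleles and 1 Cre allele at Mesp1, a gene active in the early mesoderm from which most heart muscle, endocardium and epicardium descend. Each genotype had 3 arrays, and each array held a pool of 4 to 6 hearts, so the spread is one between pools. No group carried Cre without the floxed alleles, so the removal of Hic2 and the Cre allele cannot be told apart.

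BMPs are secreted ligands that bind paired type I and type II receptor kinases, which phosphorylate SMAD1, SMAD5 and SMAD9. These enter the nucleus with SMAD4 and switch on genes such as the Id genes, whose products block basic helix-loop-helix transcription factors. In the embryonic heart, Bmp10 is made by trabecular muscle of the ventricles and is required in the mouse for their growth, Bmp2 and Bmp4 act in the atrioventricular canal and outflow tract, and ALK1, the product of Acvrl1, receives BMP9 and BMP10 on endothelial cells.

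All values are log2 expression values as deposited, so a difference of 1 is a doubling of signal. Array medians lay between 7.41 and 7.48, and array pairs correlated at 0.993 to 0.997. The targeted gene Hic2, which codes for a zinc finger repressor, stood at 8.10, 8.26 and 8.14 in control replicates 1, 2 and 3 and at 8.07, 7.96 and 8.04 in knockout replicates 1, 2 and 3. All knockout values were below all control values, but the difference of -0.14 ± 0.07 (SE) had a limma adjusted p of 0.314, and where its probes lie relative to the floxed part was not analysed here. Control replicate 3 stood apart in the Y-linked genes Eif2s3y (4.36, against 8.51 to 9.64 in the other 5 arrays) and Kdm5d (5.33, against 7.15 to 8.23), so results are also given without it.

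Bmp10 rose in the knockout. Its level was 11.75, 11.69 and 11.67 in control replicates 1, 2 and 3, and 12.57, 12.32 and 12.36 in knockout replicates 1, 2 and 3. The groups did not overlap, and the gap of 0.57 between the highest control and the lowest knockout array was wider than the spread inside either genotype. Means were 11.70 ± 0.04 and 12.42 ± 0.13 (SD, n = 3 each), a log2 difference of 0.71 (95% confidence interval 0.53 to 0.90) or 1.64-fold, with a limma adjusted p of 0.0184 over all 14860 genes. The exact permutation p for the 6 values was 0.1 (two-sided), and 3 arrays against 3 cannot give a smaller one. The size of the change hardly depended on any 1 array, at 0.64 to 0.76 when each was left out, but the adjusted p did: it was 0.0743, 0.0897 and 0.0813 without control replicates 1, 2 and 3, 0.0651 without knockout replicate 3, and under the threshold of 0.05 without knockout replicate 1 or 2.

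**Figure D1:**
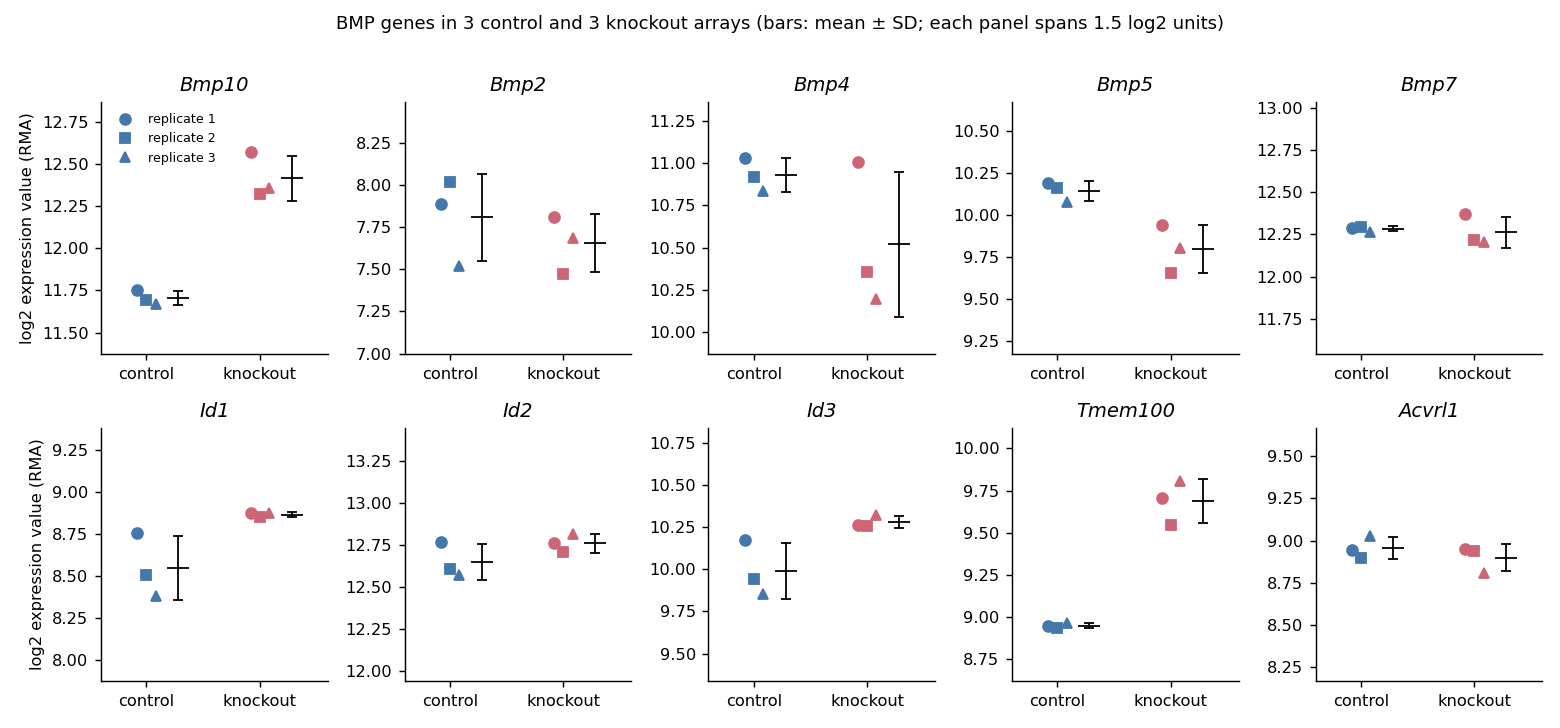
Log2 expression value (y axis) of each of the 10 BMP genes in the 3 control and 3 knockout arrays (x axis), with symbols for replicates 1 to 3 and bars for the mean ± SD. Bmp10 and Tmem100 show the widest gaps between the genotypes, 0.57 and 0.58, and the single high knockout value of Bmp4 is replicate 1, at 11.01.

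The sequence just upstream of a gene is where many repressors act, so it is shown for the ligand that rose (Bmp10), a ligand with lower values that did not overlap (Bmp5) and an Id gene (Id3). The table of RefSeq windows used here (GRCm38.p6) held 5 of the 10 genes, these 3 with Bmp4 and Id2, and windows of Bmp2, Bmp7, Id1, Tmem100 and Acvrl1 were not analysed here. Each window is the 250 bases before the annotated start, and capitals mark GGCA or its reverse complement TGCC, the core letters known to be bound by HIC1, the relative of HIC2.
Bmp10, chr6:87428744-87428993, plus strand: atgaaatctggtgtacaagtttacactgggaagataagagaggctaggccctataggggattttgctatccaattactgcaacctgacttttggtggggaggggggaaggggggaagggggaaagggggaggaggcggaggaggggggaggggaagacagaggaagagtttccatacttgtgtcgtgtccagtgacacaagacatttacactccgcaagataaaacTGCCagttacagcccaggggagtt
Bmp5, chr9:75775115-75775364, plus strand: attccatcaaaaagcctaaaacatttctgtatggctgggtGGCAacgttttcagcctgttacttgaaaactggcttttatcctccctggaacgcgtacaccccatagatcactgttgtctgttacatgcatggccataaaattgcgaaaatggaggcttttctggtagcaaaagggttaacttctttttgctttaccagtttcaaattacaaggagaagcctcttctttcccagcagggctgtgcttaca
Id3, chr4:136143572-136143821, plus strand: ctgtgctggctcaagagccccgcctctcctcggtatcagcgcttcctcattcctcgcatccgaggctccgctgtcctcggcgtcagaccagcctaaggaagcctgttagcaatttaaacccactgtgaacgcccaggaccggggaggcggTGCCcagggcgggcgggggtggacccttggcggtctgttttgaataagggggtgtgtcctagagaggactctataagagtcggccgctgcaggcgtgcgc
Each of these 3 windows held 1 match, beginning 24 bases before the start in Bmp10, 210 in Bmp5 and 100 in Id3, while Bmp4 held 3 and Id2 held 4. The core is short, and 88.2% of all 32851 upstream windows of this length held it on either strand, so its presence does not set these genes apart. The longer core GGGCA, or TGCCC, which contains the shorter one, was present in Id2 and Id3 and not in Bmp10, Bmp4 or Bmp5, against 47.7% of all windows. GGCGCC, a palindrome bound by SMAD proteins of the BMP branch, was present in Id2 among the 5 genes and in 9.59% of all windows.

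The other 4 ligands had lower means in the knockout, and none passed the test. Bmp5, which acts together with Bmp7 in the mouse endocardial cushions, came closest. It stood at 10.19, 10.16 and 10.08 in control replicates 1, 2 and 3 and at 9.94, 9.65 and 9.80 in knockout replicates 1, 2 and 3. Every knockout value lay below every control value, and the difference was -0.34 (95% confidence interval -0.54 to -0.15), with an unadjusted limma p of 0.00374 and an adjusted p of 0.127. It ranged from -0.41 to -0.27 when single arrays were left out, and was -0.38 without control replicate 3.

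Bmp4, a ligand of outflow tract muscle, had the largest mean difference of these 4 and the widest scatter. Control replicates 1, 2 and 3 gave 11.03, 10.92 and 10.83, and knockout replicates 1, 2 and 3 gave 11.01, 10.35 and 10.20. Knockout replicate 1 sat among the controls and the other two knockout arrays well below them. The difference of -0.41 ± 0.19 (SE, limma adjusted p = 0.325) was -0.65 without knockout replicate 1, -0.25 without knockout replicate 3 and -0.46 without control replicate 3.

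Bmp2, which induces cushion formation in the atrioventricular canal, read 7.89, 8.02 and 7.52 in control replicates 1, 2 and 3 and 7.81, 7.47 and 7.69 in knockout replicates 1, 2 and 3, so the groups overlapped. Its difference of -0.15 had a 95% confidence interval of -0.48 to 0.18 (limma adjusted p = 0.625) and depended on single arrays, being -0.30 without control replicate 3, -0.05 without control replicate 2, -0.23 without knockout replicate 1 and -0.06 without knockout replicate 2. Bmp7, the partner of Bmp5, had the smallest difference of the 5 ligands, with 12.29, 12.30 and 12.27 in control replicates 1, 2 and 3 and 12.37, 12.21 and 12.21 in knockout replicates 1, 2 and 3. Its interval of -0.17 to 0.13 around -0.02 does not reach the change of 0.71 in Bmp10 or the -0.34 in Bmp5 (limma adjusted p = 0.903). It was -0.03 without control replicate 3.

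Tmem100, a transmembrane protein gene that endothelial cells of the mouse embryo express in response to BMP9 and BMP10 acting through ALK1, rose in the knockout. Control replicates 1, 2 and 3 stood at 8.94, 8.94 and 8.965 and knockout replicates 1, 2 and 3 at 9.71, 9.55 and 9.81. The controls lay within a few hundredths of each other and all 3 knockout arrays were above them by 0.58 or more. The means, 8.95 ± 0.01 and 9.69 ± 0.13 (SD, n = 3 each), differed by 0.74 (95% confidence interval 0.56 to 0.91), which is 1.67-fold, with a limma adjusted p of 0.0144. Leaving out single arrays kept the change between 0.68 and 0.81. The adjusted p was then 0.0743, 0.0842 and 0.0716 without control replicates 1, 2 and 3, 0.0623 and 0.05001 without knockout replicates 1 and 3, the last just above the threshold, and 0.0300 without knockout replicate 2.

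Acvrl1, the gene for the receptor ALK1, did not pass. It read 8.94, 8.90 and 9.03 in control replicates 1, 2 and 3 and 8.95, 8.94 and 8.81 in knockout replicates 1, 2 and 3. The genotypes overlapped, the difference was -0.06 (95% confidence interval -0.22 to 0.10), and the limma adjusted p was 0.706. The difference was -0.02 without control replicate 3 and ranged from -0.09 without control replicate 2 to -0.01 without knockout replicate 3.

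The Id genes had higher means in the knockout, and none passed the test over all genes. Id1 stood at 8.75, 8.50 and 8.38 in control replicates 1, 2 and 3 and at 8.87, 8.85 and 8.88 in knockout replicates 1, 2 and 3. Id3 stood at 10.17, 9.94 and 9.85 in control replicates 1, 2 and 3 and at 10.26, 10.26 and 10.32 in knockout replicates 1, 2 and 3. In both genes the knockout arrays lay close together and just above the controls, the nearest control being replicate 1 in each case, at a gap of 0.10 for Id1 and 0.09 for Id3.

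The difference was 0.32 ± 0.10 (SE) for Id1 and 0.29 ± 0.09 for Id3, or 1.25-fold and 1.22-fold, with unadjusted limma p of 0.0113 and 0.0115 and adjusted p of 0.172 and 0.172. The SD was 0.19 in controls and 0.01 in knockouts for Id1, and 0.16 and 0.04 for Id3. The differences were 0.42 and 0.38 without control replicate 1 and 0.24 and 0.22 without control replicate 3. Id2, the third of these inhibitors, read 12.77, 12.61 and 12.57 in control replicates 1, 2 and 3 and 12.76, 12.71 and 12.82 in knockout replicates 1, 2 and 3. Its groups overlapped at control replicate 1, and the difference was 0.11 (95% confidence interval -0.06 to 0.28, limma adjusted p = 0.461). It was 0.17 without control replicate 1, 0.07 without control replicate 3 and 0.03 with arrays weighted by quality. Control replicate 1 was the highest control array and replicate 3 the lowest in each of Id1, Id2 and Id3.

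Of the 10 genes, 2 passed the limma threshold, both higher, against 0.559% of all genes tested in either direction and 0.336% higher. Another 3 had an unadjusted p under 0.05 without passing (Id1, Id3 and Bmp5), making 5 of 10 at that level, 4 higher and 1 lower, against 17.5% of all genes (10.7% higher and 6.80% lower). The groups did not overlap in 5 of the 10 genes, 4 higher and 1 lower, against 24.6% of all genes (14.2% higher and 10.4% lower). Because the genes were assembled with results known, these shares describe the set and are not evidence for it. The median change of the 10 was 0.05, against 0.0050 over all genes, with 5 means higher and 5 lower. Over all 14860 genes 83 passed, a count that fell to between 3 and 28 when 1 array was left out. Of the 10 genes 0 passed without control replicate 1, 2 or 3 or knockout replicate 3, 1 without knockout replicate 1 and 2 without knockout replicate 2.

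**Figure D2:**
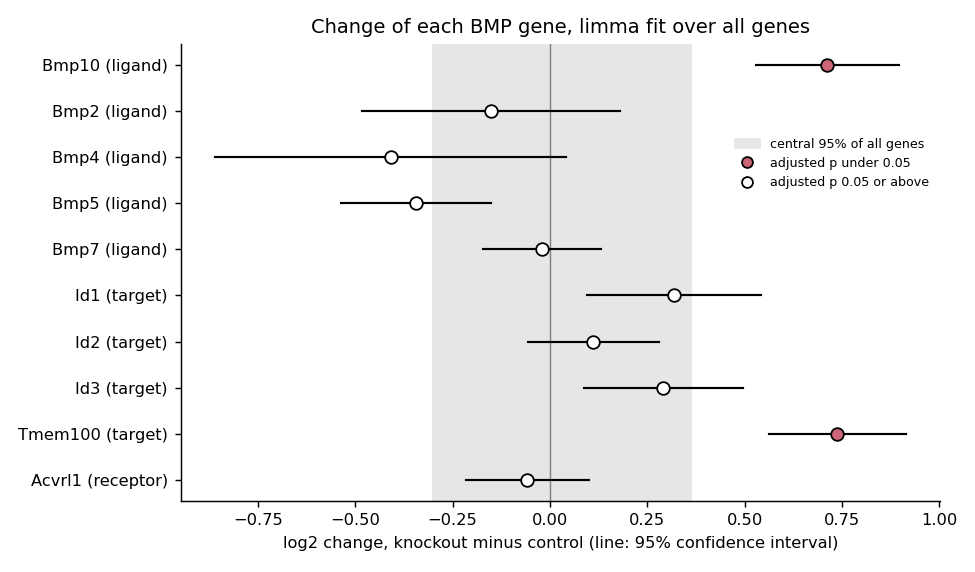
Log2 change, knockout minus control (x axis), of each BMP gene with its 95% confidence interval from the limma fit, filled where the adjusted p was under 0.05. The intervals of Bmp10 (0.53 to 0.90) and Tmem100 (0.56 to 0.91) lie beyond the grey band that holds the central 95% of all genes, -0.30 to 0.36.

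The genes whose 6 values most resembled those of Bmp10 were found by the root mean square difference after each gene was centred on its own mean over the 6 arrays. The nearest 5 were Oit3 (0.05 log2 units), the retinoic acid synthesising enzyme gene Aldh1a1 (0.06), the metallothionein gene Mt1 (0.07), the cadherin gene Cdh16 (0.07) and Lad1 (0.08). Nearest to Tmem100 were the aldolase gene Aldoc (0.06), Wfdc1 (0.08) and the GTPase gene Gimap6 (0.09). For Id1 the nearest of all other genes tested was Id3 (0.03), followed by Mllt11 (0.03) and the telomere protein gene Terf1 (0.04). The measure includes the genotype difference itself, so a near gene is also one that differed by a similar amount.

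Most of the rest of the BMP pathway did not pass the test. Of 104 genes in 7 lists (ligands, receptors, SMADs, extracellular modulators, other targets, endothelial ALK1-linked genes and trabecular genes), 96 were measured and 2 passed, Sost and Nppb, both higher, which is 2.08% against 0.559% of all genes. The groups did not overlap in 30 of the 96, or 31.2%, against 24.6% of all genes. The lists were chosen with earlier results of these data known, so these shares describe the lists and are not evidence about the pathway. The median change of the 96 was -0.0071. None of the 11 other ligands measured passed, and their differences lay between -0.13 and 0.16. Gdf6 (0.16 ± 0.13, SE), Bmp3 (-0.09 ± 0.07), Bmp15 (-0.13 ± 0.11) and Amh (0.06 ± 0.07) had the smallest p. Gdf2, which codes for BMP9, the other ligand of ALK1, differed by 0.03 ± 0.12. Its values of 5.52 to 5.98 lay below the array medians of 7.41 to 7.48. The mean of the 11 ligands on each array, 6.77 to 6.83, did so too. Whether such dim rows were expressed is unknown here, so their small differences do not show unchanged ligands.

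Receptor genes were even. Of 11 measured 0 passed, with a median of -0.05 and a range of -0.19 to 0.09. The activin type II receptor gene Acvr2a had the largest difference, -0.19 ± 0.08 (SE, limma adjusted p = 0.245), its knockout values of 8.32 to 8.51 lying below its control values of 8.55 to 8.72. The type I receptor gene Bmpr1a (-0.11 ± 0.06), the type II receptor gene Bmpr2 (-0.10 ± 0.06) and the co-receptor gene Rgmb (-0.09 ± 0.06) came next. Eng, the endoglin co-receptor of ALK1, differed by 0.09 ± 0.06.

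Among 10 SMAD genes and their regulators 0 passed, with a median of 0.0055. Smad7, an inhibitory SMAD that BMP and TGF-beta signalling switch on, read 9.68, 9.64 and 9.66 in control replicates 1, 2 and 3 and 10.08, 9.84 and 9.81 in knockout replicates 1, 2 and 3. The groups did not overlap, and the difference was 0.25 ± 0.08 (SE, limma adjusted p = 0.195). The signal-transducing Smad9 (0.20 ± 0.09) and Smad1 (0.12 ± 0.06) followed, and the ubiquitin ligase gene Smurf2 differed by -0.06 ± 0.06. Smad6, the other inhibitory SMAD gene, differed by -0.03 ± 0.07.

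Among 20 measured genes for secreted proteins that bind or process BMPs or their relatives, 1 passed, higher, with a list median of -0.0024. Sost, which codes for sclerostin, a secreted antagonist of Wnt signalling related to BMP antagonists, rose by 0.49 ± 0.07 (SE, limma adjusted p = 0.0424), from 7.95, 7.98 and 8.10 in control replicates 1, 2 and 3 to 8.59, 8.44 and 8.48 in knockout replicates 1, 2 and 3. It passed in 0 of the 6 refits that left out 1 array. Chrdl1, a chordin-like BMP antagonist gene, had nearly the same difference, 0.49 ± 0.08, with an adjusted p of 0.0538, its 3 knockout values of 8.03 to 8.25 lying above its control values of 7.55 to 7.71. Fst, the gene for the activin and BMP binder follistatin, differed by -0.34 ± 0.10 (adjusted p = 0.157) without overlap, and the procollagen and chordin protease gene Bmp1 by -0.14 ± 0.07.

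**Figure D3:**
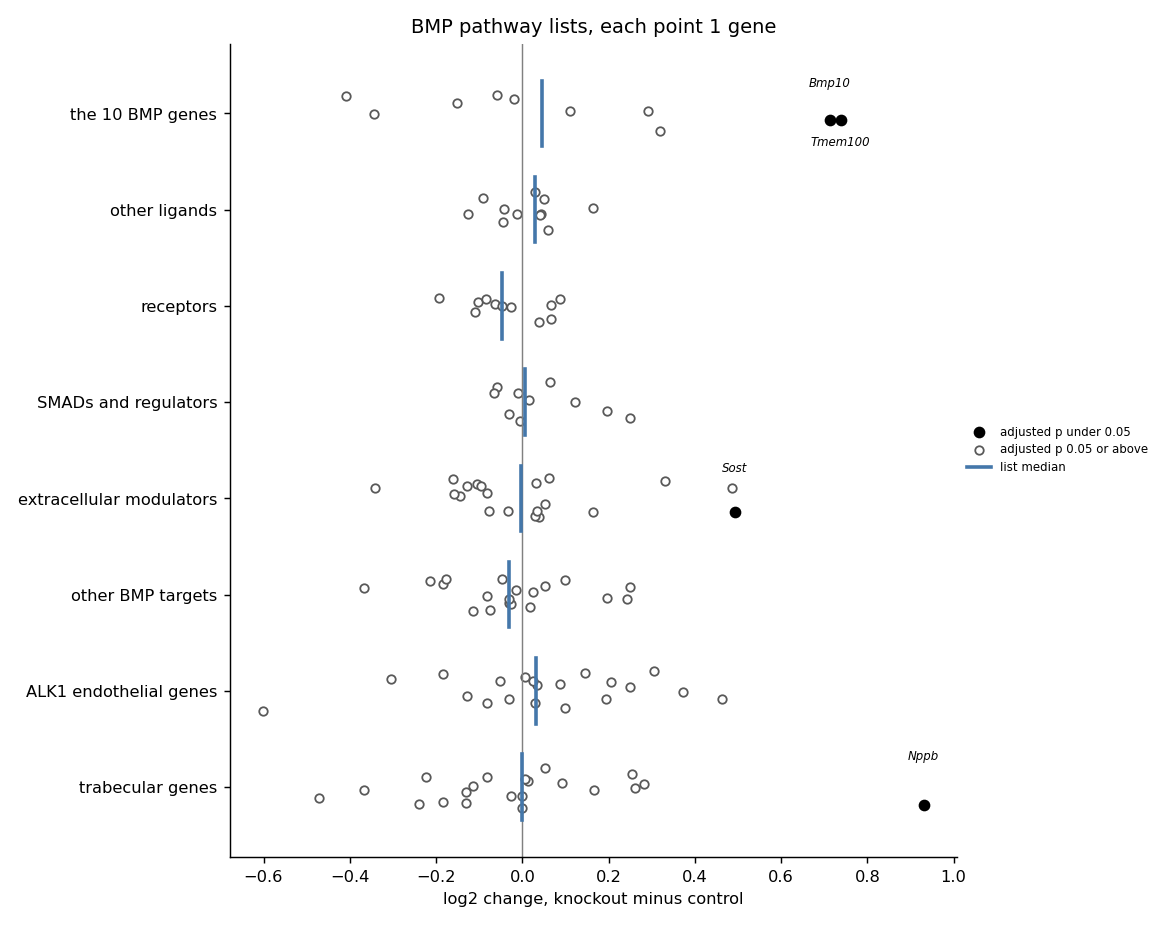
Log2 change, knockout minus control (x axis), of every measured gene in the 10 BMP genes and the 7 pathway lists, with filled points where the adjusted p was under 0.05 and a line at each list's median. List medians lie between -0.05 and 0.05, and the 4 filled genes, Bmp10, Tmem100, Sost and Nppb, are all higher in the knockout.

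Among 19 further genes known as BMP targets 0 passed, with a median of -0.03. The cardiac transcription factor genes Nkx2-5 (-0.37 ± 0.10, SE, adjusted p = 0.157) and Gata6 (-0.21 ± 0.08, adjusted p = 0.216) had lower values without overlap, while Smad7 and Smad9, given above, had higher means. Id4, the fourth Id gene, differed by -0.18 ± 0.09, opposite in sign to Id1, Id2 and Id3, and did not pass (limma adjusted p = 0.347).

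In the 20 genes linked to ALK1 signalling or its endothelial setting, 0 passed and the groups did not overlap in 10, 7 higher and 3 lower, against 24.6% of all genes. The gap junction gene Gja4, switched on by BMP9 and BMP10 in endothelial cells, stood at 9.83, 9.80 and 9.67 in control replicates 1, 2 and 3 and at 10.04, 10.02 and 10.15 in knockout replicates 1, 2 and 3, a difference of 0.30 ± 0.07 (SE, limma adjusted p = 0.111). The angiogenic factor gene Vegfa (0.46 ± 0.11) and the Notch ligand gene Dll4 (0.19 ± 0.05) had higher values, and the arterial ephrin gene Efnb2 (-0.18 ± 0.06) lower ones. The median of this list was 0.03.

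Of 21 measured genes linked to trabecular growth or trabecular muscle, 1 passed, against 0.559% of all genes. The list is not limited to trabecular muscle, holding for example Nrg1, Notch1 and Nkx2-5. The groups did not overlap in 12 of the 21, 5 higher and 7 lower, against 24.6%. Nppb codes for brain natriuretic peptide, a hormone of stretched heart muscle. It rose by 0.93 ± 0.13 (SE, limma adjusted p = 0.0424), from 11.39, 11.38 and 10.99 in control replicates 1, 2 and 3 to 12.37, 12.09 and 12.09 in knockout replicates 1, 2 and 3, and it passed in 0 of the 6 refits without 1 array. The atrial natriuretic peptide gene Nppa (0.25 ± 0.06) and the transcription factor gene Irx3 (0.28 ± 0.07) had higher values and the trabecular gene Cpne5 (-0.47 ± 0.09, adjusted p = 0.0689) lower ones, all 3 without overlap. The list's median was -0.0018, with 9 genes higher and 12 lower.

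Markers of other cells moved with genotype in the same arrays. In whole hearts, fewer cells of a type and less RNA per cell cannot be told apart. Levels of a list are given as its summed signal, on the log2 scale. The brightest genes weigh most in this sum, so it can differ where the list median hardly does. Counts of markers that passed stand beside 0.559% of all genes (0.336% higher and 0.222% lower). Bmp10 is a muscle gene, and of 13 cardiomyocyte markers 6 were measured, with differences between -0.15 (Ryr2) and 0.07 (Myl2) and none past the test; their summed signal was 15.92 to 15.95 in controls and 15.86 to 15.99 in knockouts. The 8 atrial markers measured had a median of 0.03 and 0 passed, Nr2f1 (-0.50 ± 0.09, SE) and Nppa having the smallest p, with summed signals of 14.79 to 14.82 and 14.90 to 14.96.

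Tmem100, Acvrl1 and the Id genes are expressed in endothelium, and the 16 endothelial and endocardial markers are given here. Their part in the values of these genes was not tested. The markers had a median difference of 0.01, 0 passed, and their summed signal was 15.12 to 15.15 in controls and 15.15 to 15.24 in knockouts. Icam2 (0.45 ± 0.07, SE, limma adjusted p = 0.0559) and Emcn (0.35 ± 0.06, adjusted p = 0.0673) had the largest differences. Sox17 (-0.27 ± 0.07), Cd34 (-0.20 ± 0.09) and Sox18 (-0.13 ± 0.06) had lower values without overlap. The list had 9 genes higher and 7 lower. Groups did not overlap in 7, 4 higher and 3 lower, against 24.6% of all genes.

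Of 12 epicardial markers 3 passed, all higher, against 0.336% of all genes, namely Aldh1a1 (0.75 ± 0.08), Msln (0.57 ± 0.08) and Upk1b (0.41 ± 0.06). The list median was 0.23, with 10 genes higher and 2 lower. Tbx18 (-0.24 ± 0.08) had lower values without overlap, and Aldh1a2 differed by -0.21 ± 0.17. Summed signals were 13.83 to 13.95 in controls and 14.03 to 14.19 in knockouts. The 13 erythroid markers measured all had lower means, with a median of -0.90 and summed signals of 15.56 to 15.69 and 15.24 to 15.37. Of these 6 passed, against 0.222% of all genes lower. They were Trim10, Alas2, Slc4a1, Epb42, Kel and Rhd, which fell by 0.73 (Rhd) to 1.33 (Trim10) on the log2 scale. Hba-x (-0.26), Gata1 (-0.23), Hbb-y (-0.11) and Klf1 (-0.05) had the smallest differences and did not pass. Control means were 13.94 for Hba-x and 14.44 for Hbb-y, whose value was the highest of any row on each array. Those of Gata1 and Klf1 were 7.43 and 7.09, against array medians of 7.41 to 7.48. Whether changes at these levels are measured as fully as in the other markers was not tested. Their small differences therefore do not show spared genes. Of 14 macrophage and leukocyte markers 2 passed, Fcgr3 (0.69 ± 0.11) and C1qc (0.45 ± 0.07), both higher. The list had 13 genes higher and 1 lower, with summed signals of 11.95 to 12.13 and 12.33 to 12.44. Among 10 skeletal muscle markers 1 passed, Tnnt3, which rose by 1.81 ± 0.14, and Tnni2 differed by 0.67 ± 0.13 without passing. The list median was 0.14, with 8 genes higher and 2 lower. Myf5 (-0.13), Myod1 (-0.06) and Myog (0.04) had overlapping groups. Summed signals were 10.47 to 10.65 in controls and 11.26 to 11.58 in knockouts.

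Of the 8 liver markers measured 0 passed, Trf (0.45 ± 0.08) and Ttr (0.23 ± 0.06) having the smallest p. The liver list had 3 genes higher and 5 lower, a median of -0.03, and summed signals of 10.44 to 10.59 in controls and 10.73 to 10.82 in knockouts. Among 11 cushion mesenchyme markers 0 passed, Prrx2 (-0.21 ± 0.09) and Sox9 (-0.18 ± 0.08) having the smallest p, and summed signals of 14.17 to 14.31 and 14.11 to 14.27 overlapped. Of 10 smooth muscle and pericyte markers 1 passed, Kcnj8, which fell by 0.53 on the log2 scale, and Pdgfrb differed by -0.14 ± 0.10. The list median was -0.06, with 3 genes higher and 7 lower, and summed signals were 14.46 to 14.49 and 14.39 to 14.44. RMA values do not reach 0, so no marker is at 0. The part of these marker differences in the values of Bmp10, Tmem100 and the Id genes was not tested.

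**Figure D4:**
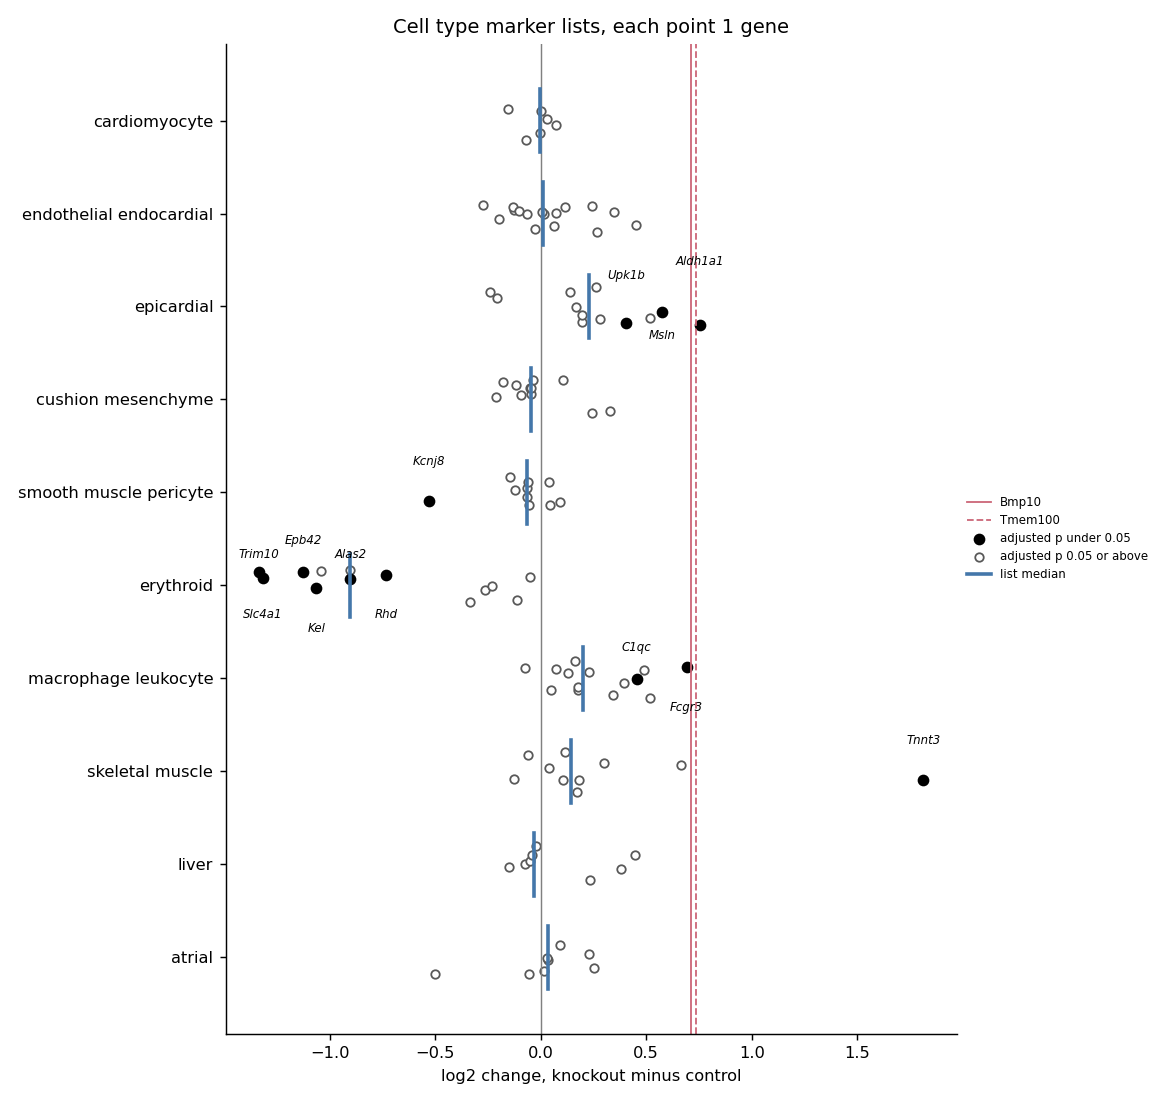
Log2 change, knockout minus control (x axis), of the measured markers of each cell type, filled where the adjusted p was under 0.05, with a line at each list's median and vertical lines at the changes of Bmp10 (0.71) and Tmem100 (0.74). The cardiomyocyte markers lie between -0.15 and 0.07, and the endothelial markers between -0.27 and 0.45. The epicardial markers range from -0.24 to 0.75 and the skeletal muscle markers from -0.13 to 1.81, past both lines. The erythroid markers range from -1.33 to -0.05.

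**Figure D5:**
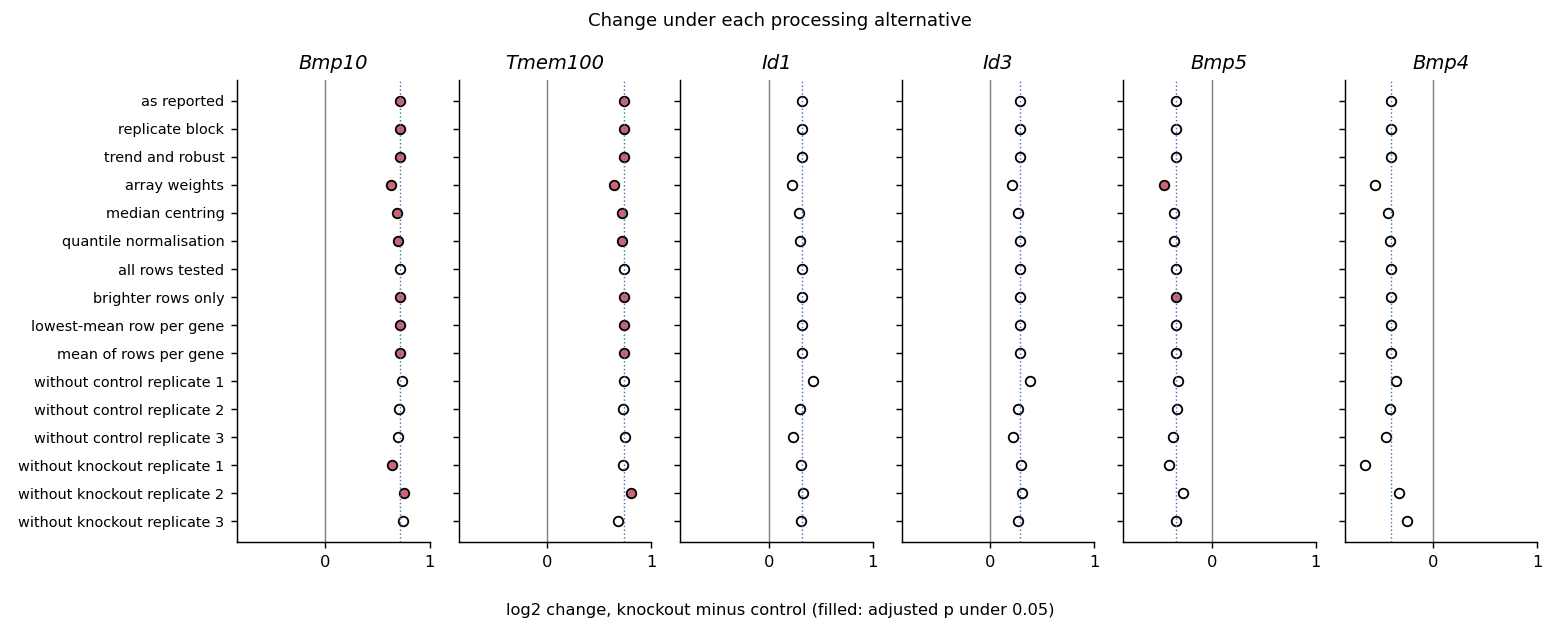
Log2 change, knockout minus control (x axis), of 6 BMP genes under each processing alternative (y axis), filled where the adjusted p was under 0.05. Bmp10 stays between 0.63 and 0.76 and Tmem100 between 0.65 and 0.81 under all 15 alternatives, while their adjusted p crosses the threshold.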

How the data were processed

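Total RNA from 6 pools of E13.5 hearts was extracted with a Qiagen kit, amplified and labelled for Affymetrix arrays (per the labels' protocols). According to the submitters' processing notes, the deposited log2 values come from RMA (robust multi-array average), run in Expression Console. This method subtracts background, gives every array the same distribution of probe intensities and combines probes into rows, whose medians still differ slightly. It hides any shift common to most genes and compresses changes of dim rows. For the software version, annotation release and genome build: not given in the sources used here. Of 23332 rows, 14996 carried exactly 1 gene symbol; the highest-mean row was kept for each of 135 genes with several, leaving 14860 genes.

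Knockout and control were compared with limma 3.58.1 (lmFit, eBayes, default prior) in R 4.3.3, two-sided, with genotype as the only term. Benjamini-Hochberg adjustment ran over all 14860 genes, at a threshold of 0.05. SE is the moderated standard error and SD is over 3 arrays. The number of arrays limits the precision. Exact permutation tests used SciPy 1.17.1. The fit was tested on simulated data. The labels give no batch. Same-numbered arrays were not taken as pairs. The 10 genes, the pathway and marker lists and the alternatives were chosen with earlier results of these data known. From each pathway list, the genes that passed and the 4 with the smallest p were named. From each marker list, those that passed and the 2 with the smallest p were named. Gdf2, Eng, Smad6, Id4 and further markers with lower, overlapping or small differences were added after their values were seen.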

Additional observations from a re-analysis of the deposited data

How the results depend on the processing

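Bmp10 and Tmem100 kept their direction in all 15 alternatives and lost the call when every row of the array was tested (limma adjusted p = 0.118 for Bmp10 at 0.71 and 0.111 for Tmem100 at 0.74). Leaving out single arrays gave 0.64 to 0.76 for Bmp10 and 0.68 to 0.81 for Tmem100. Of the 10 BMP genes, 0 passed with every row tested and 0 to 2 when single arrays were left out. Over all genes, where 83 passed, the count was 38 with the replicate block, 203 with trend and robust moderation, 733 with array weights, 399 with brighter rows only, 0 with every row tested (2935 of 23332 rows at an unadjusted p under 0.05) and 3 to 28 without single arrays. Of the pathway genes, where 2 passed, the counts were 1, 5, 10, 6, 0 and, in every refit without 1 array, 0. Testing every row adjusts over more tests and also refits the shared spread, the genes at an unadjusted p under 0.05 going from 2607 to 2063 of the same 14860. The cause of these differences was not tested. Same-numbered arrays had correlations of deviations from the group means of -0.04, 0.02 and 0.13, so the numbers were not taken as pairs, and the replicate block left both Bmp10 (0.71) and Tmem100 (0.74) past the threshold. Bmp5 passed with array weights (-0.46, adjusted p = 0.0224) and with brighter rows only (-0.34, 0.0483). Bmp7 ranged from -0.073 to 0.0078 without single arrays and changed sign without knockout replicate 2 (0.0042) or knockout replicate 3 (0.0078). Arrays give no read depth, and with no detection p-values used here, signal over background is unknown.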

Other observations

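A few values of the wider pathway were singled out after they were seen. Apln, the apelin gene of endothelial tip cells, read 9.17, 9.13 and 9.23 in control replicates 1, 2 and 3 and 8.88, 8.81 and 8.02 in knockout replicates 1, 2 and 3. Its difference of -0.60 ± 0.21 (SE, limma adjusted p = 0.212) came with all 3 knockout values below the controls, knockout replicate 3 lowest. Cdkn1c, a cell cycle inhibitor gene, read 11.26, 11.44 and 11.16 in control replicates 1, 2 and 3. Its knockout arrays read between 11.003 and 11.135, a difference of -0.22 ± 0.08 (limma adjusted p = 0.236). Neither passed the test.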
